A study of Mus musculus with 8 samples.

Results

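The miR-26 family was followed in cultured microvascular smooth muscle cells of Rap1a knockout mice. Rap1a is a small GTPase related to Ras that is known for roles in cell adhesion. All probes for mmu-miR-26a and mmu-miR-26b, in any mature form, were taken by name from a mouse microRNA (miRNA) array. This gave 3 of the 650 miRNAs on the array, namely miR-26a, miR-26b and the passenger strand miR-26b*, with 8 of the 1857 probes and 60 of the 13000 spots that were not controls. The cells came from male C57BL6 mice and were all Rap1a -/-, so that every group shared the knockout. The 4 control cultures, called vector, had been transduced with an empty shuttle vector, and the other 4 cultures carried the RapCA shuttle vector in the same background. Cells were grown in 10% serum, exposed to virus overnight without serum and allowed to recover for 48 h in medium with 0.5% serum, after which total RNA was taken. The series describes the comparison as knockout against rescue. No wild-type cells were part of it, and the sources used here do not say what the RapCA construct encodes, which cells the virus reached, or whether the 4 cultures of a group came from different animals. The p-values therefore measure the spread between these cultures, which may be partly technical.

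miR-26 is a broadly expressed miRNA family carried in introns of the Ctdsp genes, which encode small phosphatases of the C-terminal domain of RNA polymerase II. The phosphatases and the miRNA are known to act together as brakes on the cell cycle through the retinoblastoma pathway. miR-26a is known to repress the chromatin methyltransferase Ezh2 and the BMP and TGF-beta signal transducer Smad1. In human aortic smooth muscle cells, blocking miR-26a has been reported to favour differentiation, and the oncoprotein Myc is known to repress the family in lymphoma cells.

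The family has 3 loci in the mouse reference used here (RefSeq, GRCm38.p6), all on the plus strand and all inside the span of a Ctdsp gene read from the same strand. Mir26a-1 lies at chr9:119031796-119031885, 105.26 kb after the start of Ctdspl. Mir26a-2 lies at chr10:126995530-126995613, 16.813 kb after the start of Ctdsp2. Mir26b lies at chr1:74394310-74394394, 2.701 kb after the start of Ctdsp1. The reference table gives gene spans only, and the intronic position is background knowledge. The host transcripts were not measured by the array. The hairpins are shown with the guide strand in capitals, because the same miR-26a guide is cut from 2 of them.
Mir26a-1: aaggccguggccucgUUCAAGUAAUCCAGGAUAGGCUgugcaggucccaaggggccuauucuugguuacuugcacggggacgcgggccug
Mir26a-2: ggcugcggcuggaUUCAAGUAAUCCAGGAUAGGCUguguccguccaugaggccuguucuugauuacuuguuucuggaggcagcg
Mir26b: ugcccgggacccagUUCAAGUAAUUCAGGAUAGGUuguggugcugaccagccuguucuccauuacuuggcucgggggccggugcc

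The mature forms on the array follow, with the seed (bases 2 to 8, counted from the 5′ end) in capitals, since the seed sets which messages a miRNA pairs with.
miR-26a: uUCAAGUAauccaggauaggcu
miR-26b: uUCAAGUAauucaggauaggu
miR-26b*: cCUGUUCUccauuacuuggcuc
miR-26a and miR-26b carry the same seed, and of the 1679 mature names in the reference table only these 2 have it. Along the 21 bases they have in common in length, 19 are identical, and the differences are C11U and C21U (miR-26a base, position from the 5′ end, miR-26b base). miR-26a is 22 bases long and miR-26b is 21. With so few differences, hybridisation of one to the probes of the other was not tested here, and the array cannot tell which of the 2 loci a miR-26a molecule came from. The search by name found no probe on the array for the passenger strands of the miR-26a hairpins.

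miR-26a and miR-26b were well above background on every array, while miR-26b* was not on any. Each of the guide strands had 2 probes with 10 spots apiece on each array, and miR-26b* had 4 probes with 5 spots apiece. Of the kept miR-26b* spots, 0 of 78 on the vector arrays and 0 of 80 on the RapCA arrays were well above background, and its brightest spot read 5.97 in processed signal. The miR-26b* signal was thus not detectable in either group, and no fold is given for it. The dimmer miR-26b probe, A_54_P2483, had 33 of 36 kept spots well above background on the RapCA arrays, and the other 3 guide-strand probes had all of theirs.

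The arrays themselves differed in brightness. Total gene signal was between 59506 and 81972 on the vector arrays and between 26374 and 29218 on 3 RapCA arrays, with 56618 on RapCA replicate 1. The 4 spike-in control RNAs had geometric means of 1109 ± 100.2 and 1116 ± 99.8 (SD, n = 4 each). All 8 arrays lay on 1 slide and were scanned in 1 run, but position codes place the vector arrays in one line of the slide and the RapCA arrays in the other, so slide line and group cannot be told apart. Each array was therefore scaled by its 75th percentile, taken over the 189 probes that every array detected. A log2 difference of 0 then means no change relative to that percentile, which need not be the typical probe. The median log2 difference was -0.24 for the 115 miRNAs tested with those probes alone and -0.30 for all 168 tested miRNAs. Of the smooth muscle markers, miR-143 was detected on all 8 arrays and miR-145 on 4 of 4 vector and 0 of 4 RapCA arrays, while miR-1, miR-133a and miR-133b were detected on none. Both detected markers were lowered in RapCA cells (limma adjusted p = 6.66e-06 and 6.62e-05), miR-143 from 7.09 ± 0.20 to 5.47 ± 0.25 and miR-145 from 4.17 ± 0.16 to 3.42 ± 0.02, next to the floor of 3.41 set on dim signals (log2 scaled signal, SD, n = 4 each). The summed level of the 5 markers ranged from 180.3 to 232 in vector and from 55.5 to 79.6 in RapCA cells, a shift in the same direction as that of miR-26a and miR-26b, whose part in those results was not tested. The lists for endothelium (2 miRNAs), blood cells (6), epithelium (7) and hepatocytes (1) had 0 detected members. Of the striated muscle list 1 of 4 was tested (miR-206, 0.06 ± 0.10 log2 ± SE, adjusted p = 0.579), and of the neuron list only miR-128 was detected, on 2 vector arrays and 1 RapCA array.

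miR-26a was lower in RapCA cells on every array. Its scaled log2 signal was 8.44, 8.36, 8.49 and 8.49 on vector replicates 1 to 4 and 7.21, 7.16, 7.32 and 7.10 on RapCA replicates 1 to 4. The groups did not overlap, and the gap between them was wider than the whole range within either. The log2 difference was -1.25 ± 0.08 (SE, n = 4 per group), a level 0.421 times that of vector cells with a 95% interval of 0.369 to 0.480 (limma adjusted p = 1.08e-06). In bulk RNA, fewer cells with the miRNA and less of it per cell cannot be told apart. RapCA replicate 1, whose total signal was close to the vector arrays, had a miR-26a level inside the range of the 3 dim RapCA arrays.

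miR-26b was also lower in RapCA cells, by a smaller amount and with more spread. Its scaled log2 signal was 5.89, 6.46, 6.32 and 6.02 on vector replicates 1 to 4 and 5.76, 5.36, 5.56 and 5.56 on RapCA replicates 1 to 4. The groups did not overlap, but RapCA replicate 1 lay just under vector replicate 1. The log2 difference was -0.61 ± 0.14 (SE, n = 4 per group), a level 0.655 times that of vector cells with a 95% interval of 0.524 to 0.818 (limma adjusted p = 0.00324). The call of miR-26b ended when array total signal entered the fit as a covariate (-0.21) and without RapCA replicate 2 (-0.34), an omission that also changed the scale factors. With the scale factors of all 8 arrays kept, the same omission gave -0.54 and the call held (limma adjusted p = 0.0116). RapCA replicate 1 alone against the vector arrays gave -0.26, or -0.41 with the scale factors of all 8 arrays kept. In both, the spread comes from the vector arrays only. The miR-26b difference was 0.10 and not called when the background was corrected by normexp and 50 was added to each signal.

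Of the 168 tested miRNAs, 50% were called lowered and 26.2% raised, 76.2% in either direction, so lowered calls for 2 of 2 tested family members match the more common outcome on this array. In order from the lowest difference, miR-26a was number 14 of 168 and miR-26b number 53. Non-overlapping groups with lower values in RapCA cells were found for 46.4% of the tested miRNAs. Relative to the median of all tested miRNAs, miR-26a stood at -0.95 and miR-26b at -0.31 on the log2 scale.

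**Figure D1:**
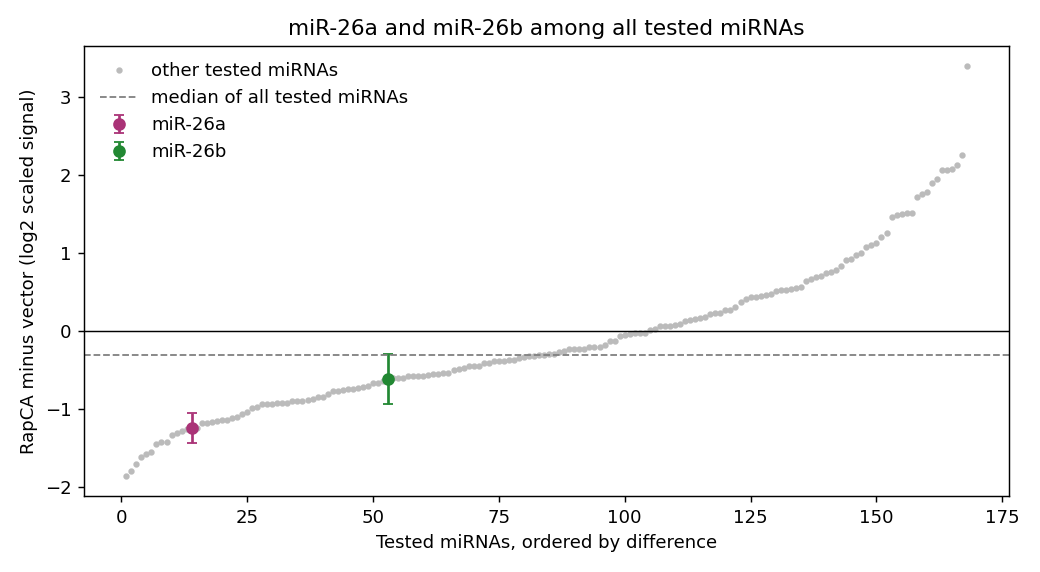
RapCA minus vector difference in log2 scaled signal (vertical axis) of the 168 tested miRNAs in order of size (horizontal axis). Coloured points are miR-26a (-1.25) and miR-26b (-0.61) with 95% intervals from limma, the dashed line is the median of all tested miRNAs (-0.30), and miR-26a stands well below that line while the interval of miR-26b reaches it.

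The separate probes of each member gave nearly the same difference. For miR-26a, probe A_54_P2481 read 7.87, 7.83, 7.96 and 7.93 on the vector and 6.63, 6.57, 6.77 and 6.47 on the RapCA arrays in scaled log2 signal. Probe A_54_P4384 read 9.01, 8.89, 9.03 and 9.05 on the vector and 7.80, 7.75, 7.86 and 7.74 on the RapCA arrays. Neither probe had overlapping groups, with log2 differences of -1.29 ± 0.10 and -1.21 ± 0.09 (SE, limma adjusted p = 1.25e-06 and 1.22e-06 over 292 probes). Within miR-26a the probes therefore kept their distance from each other, with a shift of 0.08 between groups that did not pass an exact permutation test (p = 0.143, two-sided, n = 4 per group).

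For miR-26b, probe A_54_P2483 read 5.49, 6.05, 5.95 and 5.61 on the vector and 5.37, 4.85, 5.19 and 5.12 on the RapCA arrays. Probe A_54_P2484 read 6.29, 6.87, 6.70 and 6.42 on the vector and 6.16, 5.87, 5.94 and 5.99 on the RapCA arrays. In both probes the highest RapCA array was replicate 1 and the lowest vector array was replicate 1, with log2 differences of -0.64 ± 0.15 and -0.58 ± 0.14 (SE, limma adjusted p = 0.00305 for each). The shift between its probes was 0.07 (exact permutation p = 0.457, two-sided, n = 4 per group). All 4 guide-strand probes were thus lowered, where 51% of the 292 tested probes were lowered and 26.7% raised, and all 4 had groups that did not overlap, against 47.9% with lower values in RapCA cells. The 2 probes of a member share its RNA and the arrays, so they are not independent replicates.

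**Figure D2:**
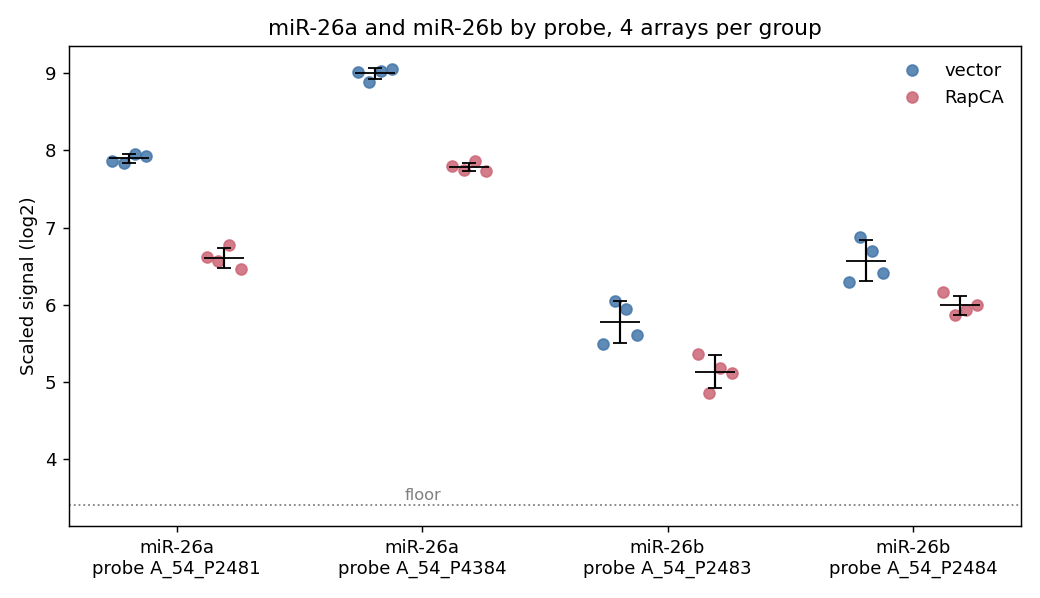
Scaled log2 signal (vertical axis) of the 2 probes of miR-26a and the 2 probes of miR-26b, with 1 point per array, 4 vector and 4 RapCA arrays per probe. Horizontal bars are group means with SD, the dotted line is the floor at 3.41, and the miR-26a groups are further apart and tighter than the miR-26b groups.

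Repeated spots of a probe on 1 array set the technical precision. For the dimmer probe of each member, the coefficient of variation among kept spots on vector arrays ran from 4.22% to 14.5% for miR-26a (A_54_P2481) and from 2.88% to 11.1% for miR-26b (A_54_P2483). On RapCA arrays it ran from 6.03% to 27.7% and from 6.36% to 18.4%. Spots of miR-26b thus varied about as much as those of miR-26a, and its larger spread in the vector group lay between arrays. In processed signal without scaling, the 4 vector arrays read 79.6, 129, 128 and 70.1 for miR-26b, and 486, 495, 598 and 404 for miR-26a.

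Without any scaling the signal of both guide strands was lower still. Mean log2 signal of miR-26a fell from 8.83 ± 0.24 in vector to 6.51 ± 0.69 in RapCA cells (SD), which is -2.32 or 0.201 times the vector level (exact permutation p = 0.0286, the smallest that 70 assignments allow, 0.0429 adjusted over 3 tests, lower in 4 of 4). For miR-26b it was 6.56 ± 0.46 and 4.88 ± 0.81, a difference of -1.68 or 0.312 times the vector level (SD, n = 4 each), which did not pass (exact permutation p = 0.0571). limma on the unscaled arrays, with its own floor on dim spots, called both lowered, at -2.32 for miR-26a (adjusted p = 0.000263) and -1.67 for miR-26b (adjusted p = 0.00442). The groups of miR-26b overlapped at 1 array, RapCA replicate 1, with 6.08 against 6.07 on vector replicate 4. Leaving out that array removed the overlap by itself and gave -2.08 (exact permutation p = 0.0286, the smallest that 35 assignments allow). The other 7 omissions of 1 array did not pass (exact permutation p from 0.0571 to 0.0857). The test of miR-26a no longer passed without vector replicate 1 (-2.33), 2 (-2.31) or 3 (-2.22), each with exact permutation p = 0.0571. The miR-26a groups still did not overlap in these omissions, but another of the 35 assignments gave a difference at least as large in size. In the other 5 omissions of 1 array the miR-26a test passed (exact permutation p = 0.0286). Scaling to the spike-in RNAs gave -2.33 for miR-26a and -1.68 for miR-26b, where the median of all tested miRNAs was -1.07.

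miR-26a took up 0.995%, 0.878%, 0.946% and 0.893% of total gene signal on the vector arrays and 0.467%, 0.370%, 0.403% and 0.366% on the RapCA arrays. This share is itself a scaling to the array total, whose mean on the RapCA arrays was 0.503 times that on the vector arrays. The groups of the share did not overlap (exact permutation p = 0.0286, the smallest possible). It did not pass after adjustment over 5 array measures (exact permutation, adjusted p = 0.0714). Since its p was already the smallest possible, that outcome depended on the other measures adjusted with it. The share of miR-26b was 0.187% ± 0.035 in vector and 0.126% ± 0.026 in RapCA cells (SD, n = 4 each), a difference of -0.0620 percentage points that did not pass (exact permutation p = 0.0857, 0.143 adjusted).

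The test of whether the 2 guide strands changed by different amounts used their difference on each array, from which the scale factor drops out. miR-26a minus miR-26b in log2 signal was 2.55, 1.90, 2.17 and 2.48 on vector replicates 1 to 4. It was 1.45, 1.80, 1.75 and 1.54 on RapCA replicates 1 to 4. The difference was smaller on every RapCA array than on any vector array, although vector replicate 2 and RapCA replicate 2 lay close together. The mean shift was -0.64 (exact permutation p = 0.0286, the smallest possible, 0.0429 adjusted over 3 tests, two-sided, n = 4 per group). It stood at -0.51 with quantile normalization and no longer passed (exact permutation p = 0.0571). It did not pass either, with the same exact permutation p, without RapCA replicate 1 (-0.57), 2 (-0.69), 3 (-0.68) or 4 (-0.61), and it still passed when 1 vector array was left out (-0.76 to -0.54). The groups did not overlap in any of these omissions of 1 array. Without a RapCA array, however, another of the 35 assignments gave a shift at least as large in size. Levels of the 2 miRNAs are not compared, since their probes can bind with different strength.

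**Figure D3:**
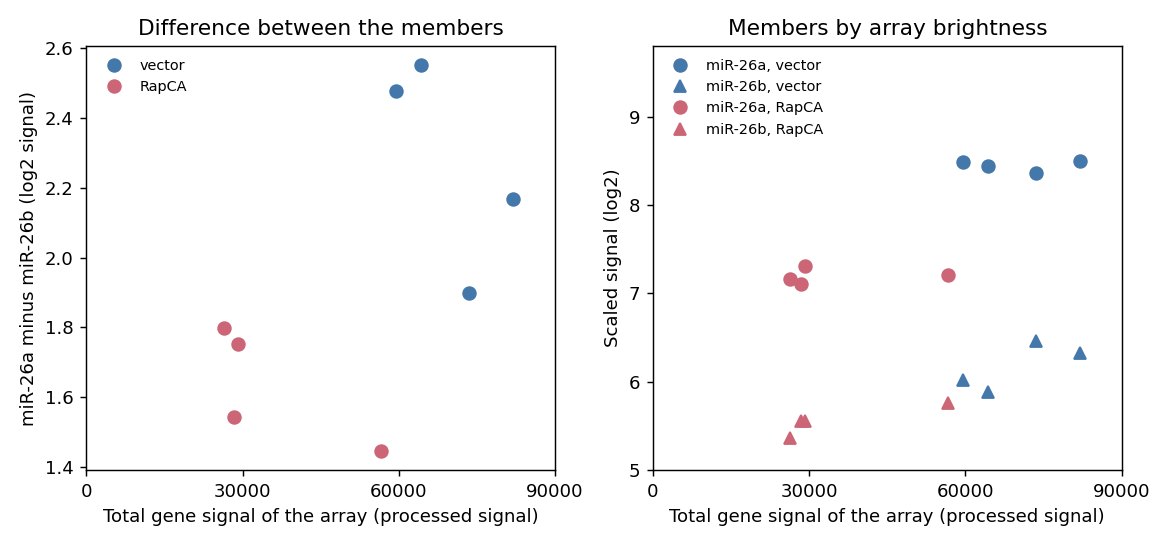
Left, log2 signal of miR-26a minus miR-26b on each array (vertical axis) against total gene signal of the array in processed signal units (horizontal axis). Right, scaled log2 signal of both members against the same axis, with 1 point per array, 4 vector and 4 RapCA arrays: miR-26a lies at 7.10 to 7.32 on all RapCA arrays, RapCA replicate 1 at 56618 included, while miR-26b is highest on the 2 brightest arrays of the vector group and on the brightest of the RapCA group.

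The array-to-array pattern of the members also differed. Over the 8 arrays the scaled log2 signals of miR-26a and miR-26b had a Pearson r of 0.84, but this holds the difference between groups, and for deviations from the group means r was -0.12. Among the 114 other miRNAs with a probe detected on all 8 arrays, those most like miR-26a by r over 8 arrays were miR-379 (0.997), miR-199a-5p (0.990), miR-103 (0.989), miR-107 (0.986) and miR-652 (0.984). Their r for deviations from group means was 0.75, 0.35, 0.11, -0.01 and 0.19. For all but miR-379 the likeness thus rests mostly on the step between the groups. All 5 were lowered, with log2 differences from -1.55 (miR-379) to -0.93 (miR-107), where 50% of all tested miRNAs were lowered. A choice by r over 8 arrays favours miRNAs that share this direction.

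The miRNAs most like miR-26b were miR-140 (0.970), miR-27a (0.965), let-7g (0.960), miR-148a (0.954) and let-7f (0.942). For these, r of the deviations from group means was 0.89, 0.90, 0.85, 0.84 and 0.79, so they followed miR-26b within the groups too. The usual size of this r over the 114 miRNAs was not computed, so it cannot be called particular to these 5. All 5 were lowered, from -0.94 (miR-148a) to -0.38 (let-7g), a direction that the choice by r over 8 arrays favours here too. Median r over the 114 miRNAs was 0.64 for miR-26a and 0.55 for miR-26b. These r values are descriptions over 8 arrays that share a slide and the scaling, and brightness moves with the group.

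Other miRNAs that are carried in introns of protein-coding genes did not share 1 direction. Of 46 such miRNAs, 29 were tested, 17 were lowered (58.6%, against 50% of all tested), 4 raised and 8 not called, with a median log2 difference of -0.31 against -0.30 for all tested miRNAs. The 3 with the most signal were miR-24 (-0.81 ± 0.09, lowered), miR-15b (0.09 ± 0.10, not called) and miR-23b (-0.97 ± 0.09, lowered; log2 ± SE, n = 4 per group). miR-24 is also made from a locus outside such an intron.

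Of 21 other miRNAs known to be repressed by Myc, 17 were tested, 8 were lowered (47.1%, against the same 50%), 4 raised and 5 not called, with a median of -0.30. Those with the most signal were the growth-restraining let-7c (-0.92 ± 0.11) and let-7a (-0.73 ± 0.09), both lowered, and miR-22 (-0.13 ± 0.09, not called; log2 ± SE, n = 4 per group). The share lowered was close to that of all tested miRNAs. miR-29a, miR-29b, miR-29c and miR-15a were the 4 raised ones, and these names were chosen after their values were seen.

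Of 7 other miRNAs linked to injury and growth of smooth muscle, 6 were tested, 1 was lowered (16.7%, against 50% of all tested), 3 were raised (where 26.2% of all tested were) and 2 were not called, with a median of 0.15 against -0.30. With 6 miRNAs these shares are a description only. The 3 with the most signal were miR-21 (-0.03 ± 0.18, not called), miR-24 and miR-31 (0.24 ± 0.08, raised; log2 ± SE, n = 4 per group). The direction of these lists depends on the reference, since without scaling the median of all tested miRNAs was -1.03 and 10 miRNAs in place of 44 were raised over the whole array.

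Of the members, miR-26a alone is among the 54 selected miRNAs in the authors' deposited table. Its miR-26a values, whose normalization is not stated, were 449, 393, 413 and 413 for the vector cultures and 219, 193, 200 and 193 for the RapCA cultures. On the log2 scale the means of these values in the authors' deposited table differ by -1.05. Quantile normalization of the scanner signals gave -1.05 and cyclic loess gave -1.07, so the value does not identify the normalization used.

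**Figure D4:**
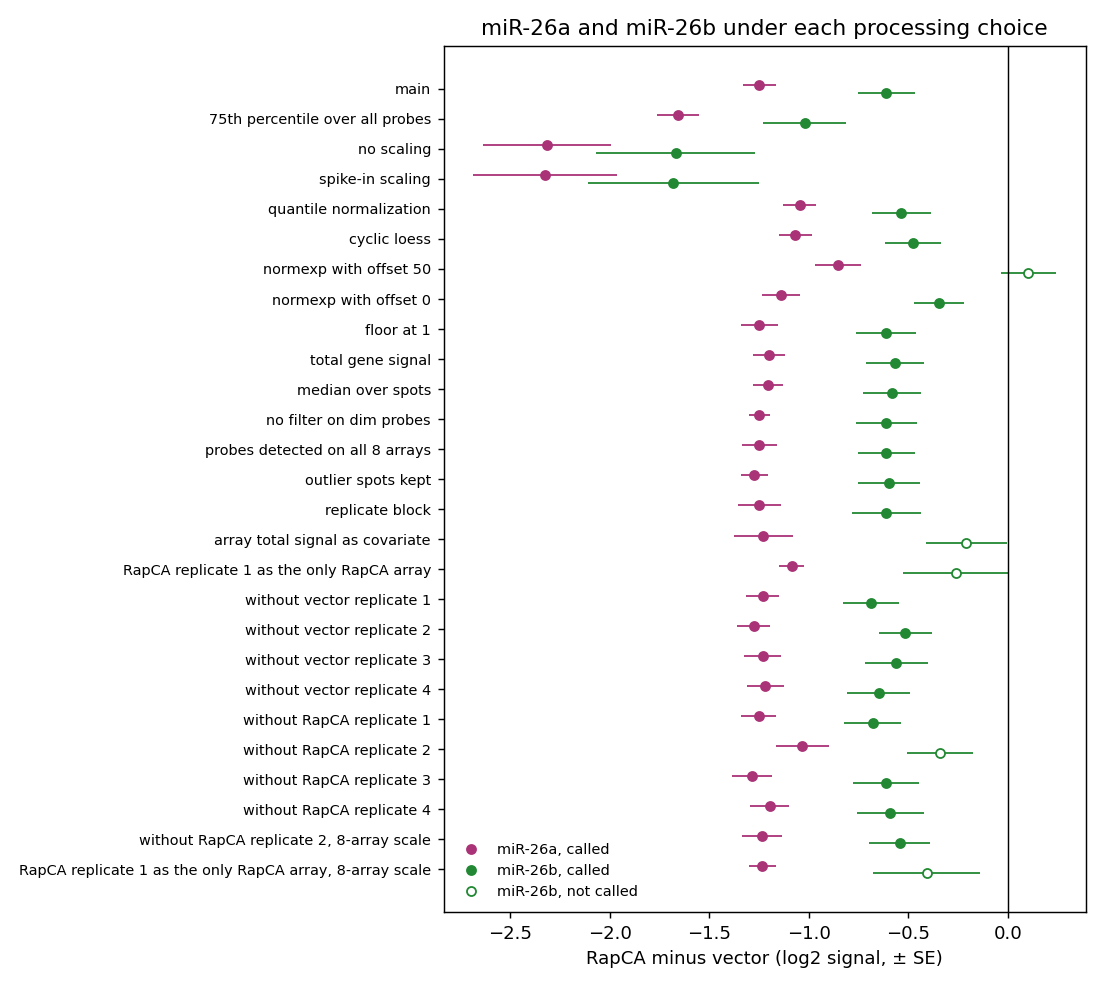
RapCA minus vector log2 difference (horizontal axis, with SE) of miR-26a and miR-26b under the main processing and 26 alternatives (vertical axis). Filled points passed limma's adjusted p threshold and open points did not: miR-26a stays filled throughout, between -2.33 and -0.85, and miR-26b is open in 5 alternatives, 2 of them with RapCA replicate 1 as the only RapCA array and so with a spread from the vector arrays alone.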

How the data were processed

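Spot intensity came from Agilent Feature Extraction 10.7.3.1, per the file headers (10.7 per the submitters' processing notes). In the deposited intensity column used here, the software had removed local background and a spatial trend, with no scaling between arrays. Other deposited columns were flags for outliers, saturation (0 spots) and signal well above background. The series-wide value table equals the processed intensity (largest difference 0; column medians -0.416 to 0.722). The deposited table of 54 miRNAs has no stated normalization.

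Control spots were left out, and so were outlier spots (2.98% to 4.66% of the other spots per array). Signals were scaled to the 75th percentile of 189 probes detected on all 8 arrays (over 0.5 of spots well above background), floored at 10.7 and turned to log2. Log2 values were averaged over the spots of a probe and then over a miRNA's probes, keeping probes that were detected throughout at least 1 group, which left 168 miRNAs and 292 probes. limma 3.58.1 in R 4.3.3 (lmFit, eBayes, Benjamini-Hochberg, threshold 0.05) compared the groups. Array totals are the extraction software's total gene signal. The number of arrays limits the precision. The method was tested on simulated data. Alternatives changed the scaling, background correction, floor, filter, spot summary and arrays used; normexp took median spot signals, since the files used here hold no mean spot signal.

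Members and lists were chosen with earlier results of these data known. Named miRNAs are the members, the 5 most alike for each tested member, and the 3 brightest tested of each list. Within groups, arrays correlated at 0.968 to 0.998.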

Additional observations from a re-analysis of the deposited data

Results flagged for a closer look

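Among 24 sets of 4 arrays checked for a single array far from the others, 2 stood out, where chance alone gives about 1 in 20. Total gene signal of RapCA replicate 1 was 56618, while the remaining RapCA arrays had 26374 to 29218. The miR-26a difference was -1.25 without that array and -1.09 with it as the only RapCA array, while the miR-26b difference was -0.68 and -0.26. The spike-in geometric mean of vector replicate 1 was 1259, against 1048 to 1068 on the other vector arrays. Without that array miR-26a had -1.23 and miR-26b -0.69. No measure of miR-26a or miR-26b itself stood out in this way.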

How the results depend on the processing

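miR-26a kept its direction and its call in all 26 alternatives, from -2.33 to -0.85 (2 of them chosen after seeing the data, with the scale factors of all 8 arrays kept), and miR-26b was called lowered in 21 of 26. In 2 of the 26, RapCA replicate 1 is the only RapCA array, so the spread comes from the vector arrays alone, the lone array is assumed to vary like them, and those calls say nothing about stability. miR-26b had -0.21 with array total signal as a covariate, 0.10 under normexp with offset 50 (probe A_54_P2483 0.21), and -0.26 with RapCA replicate 1 as the only RapCA array (-0.41 with the scale factors kept). Leaving out 1 array gave -0.69 to -0.34 for miR-26b, the last without RapCA replicate 2, where more probes set the scale. With the scale factors kept, that omission gave -0.54 and miR-26b was called. For miR-26a the range was -1.29 to -1.03, the last also without RapCA replicate 2 (-1.24 with the scale factors kept). In each of these 4 settings without a miR-26b call, and with no filter on dim probes, 2 of the 4 probes were called (also 2 with the scale factors kept and 1 RapCA array). The shift of miR-26a minus miR-26b was -0.51 with quantile normalization, not called, and -0.76 to -0.54 with 1 array left out (not called when any RapCA array was the one left out; -0.69 without RapCA replicate 2 and the scale factors kept). Unscaled differences with 1 array left out were -2.65 to -2.17 for miR-26a, not called without vector replicate 1, 2 or 3. For miR-26b they were -2.08 to -1.48, called without RapCA replicate 1. With 35 assignments the exact permutation test could reach p = 0.0286. Over all miRNAs, 84 lowered and 44 raised became 28 raised with the percentile over all probes, 10 raised without scaling, 9 raised with spike-in scaling, 20 lowered and 81 raised under normexp with offset 50, and 54 lowered under normexp with offset 0; the cause was not tested. miR-26b lay below the median of all tested miRNAs in 26 of 27 settings, the exception being the covariate (0.11 above), and miR-26a in 27. The replicate block left the differences at -1.25 and -0.61, both called, with 77 lowered and 41 raised. Replicate numbers were taken not to pair the samples. Same-numbered arrays did not deviate together (r from -0.69 to 0.68 over 115 miRNAs). Arrays of different number had r as strong in both directions (-0.80 to 0.79), so this check cannot decide whether samples were paired. Of the vector arrays, 1 of 4 correlated best with its own number.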
